A study of Mus musculus with 9 samples.

Results

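The nuclear receptors studied here were 10 genes of bone-marrow-derived macrophages (BMDMs) out of 24061 gene symbols in an RNA-seq count table. They were chosen by name: Nr1h3, Rxra, Rxrb, Pparg, Ppard, Nr4a1, Nr1d1, Nr1d2, Nr3c1 and Esrra. Every row of the table carrying one of these symbols was used, and rows of one symbol were summed. A further 39 nuclear receptor genes, listed as the rest of the family, were read beside them.

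The study asked how activation of the liver X receptor (LXR) by the agonist T0901317 (T0) changes the response of macrophages to the bacterial TLR4 ligand LPS. Polyadenylated RNA was sequenced from 3 groups, Veh, LPS and T0+LPS, with 3 libraries each, and by the study's methods each library came from its own differentiated culture. Total counts ran from 13299044 to 16467983 per library, with medians of 15086484 in Veh, 13661218 in LPS and 15320506 in T0+LPS. All cells were wild-type C57BL/6J macrophages from female mice aged 8 to 10 weeks, grown from bone marrow for 7 days with L-cell conditioned medium and then deprived of serum for a day. On day 8, LPS cells had DMSO at a dilution of 1 to 10000 for 3 hr before LPS at 10 ng/mL was added for 2 hr. T0+LPS cells had T0 at 500 nM in place of DMSO alone for those 3 hr, and LPS was then added on top in the same way. Veh cells had DMSO and no LPS, and the hour at which they were harvested was not stated. LPS against Veh, and T0+LPS against Veh, may therefore also differ in time in culture, which cannot be told apart from LPS. Changes given below as due to LPS or under LPS are differences from Veh with this limit. Whether the 3 cultures of a group came from different mice was not stated either, so the tests measure the spread between cultures.

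Nuclear receptors are transcription factors, and many are switched by small lipid-soluble ligands. LXRs bind oxysterols and PPARs bind fatty acids, each as a heterodimer with an RXR, whereas the glucocorticoid receptor binds a steroid hormone and the REV-ERBs, which carry heme, repress their targets as part of the circadian clock. In macrophages these receptors are known for control of lipid handling and of inflammatory genes, and several members of the family are orphans with no established natural ligand.

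The label of the cells was checked with marker genes. Levels are given as CPM, with library sizes scaled by TMM factors. The 8 macrophage markers, 7 of them in the table and led by Lyz2 at a mean of 21630 CPM, summed to between 24231 and 26850 CPM in Veh, between 28672 and 30282 in LPS and between 31557 and 32952 in T0+LPS. Itgam had 0 reads but only 3 bases that no other row shared, so it could not be measured. Csf1r, the receptor for the growth factor in L-cell medium, was at 3703 ± 87.5 CPM (SD, n = 3) in Veh. The T and NK cell list, led by Cd4, summed to between 2.64 and 3.48 CPM in Veh, between 1.69 and 2.46 in LPS and between 1.93 and 2.65 in T0+LPS, with Cd3e at 0 on 1436 unshared bases, while Cd8a and Klrb1c, with 31 and 9 such bases, could not be judged. The B cell list, led by Cd79b and with Pax5 at 0, gave between 1.89 and 2.44 CPM in Veh, between 0.996 and 1.59 in LPS and between 0.836 and 1.44 in T0+LPS. The mast cell and basophil list did not pass 0.0788 CPM and had Ms4a2, Fcer1a and Mcpt8 at 0. Stromal markers summed to at most 0.661 CPM, led by Col1a2, with Dcn, Lum and Pdgfra at 0 on 351 to 2075 unshared bases. Hemoglobin genes and Alas2, listed for erythroid cells, had between 1 and 45 unshared bases and could not be judged. The 5 dendritic cell markers, led by Xcr1 and with Siglech at 0, summed to between 0.413 and 0.529 CPM in Veh, between 2.22 and 2.89 in LPS and between 2.07 and 3.00 in T0+LPS. The neutrophil list, led by S100a8 and with Retnlg at 0, gave between 1.30 and 2.00 CPM in Veh, between 2.92 and 3.90 in LPS and between 2.30 and 2.80 in T0+LPS, with S100a9 not measurable on 3 unshared bases. Of 6 macrophage markers tested, LPS raised 3 and lowered 2, or 1 and 4 with library totals in place of TMM factors, which turned the signs of Csf1r and Lyz2. The part of these shifts in the levels below was not tested. In bulk RNA, a change in the share of a cell type cannot be told apart from a change per cell.

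How well each receptor was measured depended on its transcripts. The table held 32850 rows, 1 per RefSeq transcript, and reads on bases shared by several rows were not counted: 6696 rows had no base of their own, and none of these had a read. Among them, 98 shared bases only with rows on the opposite strand and also held 0 reads, so counting took no account of strand. Nr1h3, which encodes LXRα, had 2 rows with 315 unshared bases and 97 reads over the 9 libraries. Rxra, for RXRα, had 3 rows with 459 unshared bases and 101 reads. The 4 rows of Rxrb, for RXRβ, had no unshared base and no read, and its expression was therefore not measured. Of the 1011 reads of Pparg, 1009 fell on a single row that starts at 115361221 on chromosome 6 of mm10 and has 215 unshared bases, against 2 reads on the other row, which starts at 115422066 and has 127. For a gene with several rows, such as Nr1h3, Rxra or Pparg, bases shared between its transcripts went uncounted. A change in the use of a transcript can then not be told apart from a change of the whole gene. The 6 remaining members had 1 row each, with between 2192 and 6329 unshared bases. Their reads over the 9 libraries were 231 for Nr4a1, 689 for Nr1d1, 3809 for Ppard, 12360 for Nr1d2, 16478 for Esrra and 32081 for Nr3c1. The plot of reads against unshared bases sets the LXR and RXR genes apart from the members with a whole transcript to count on.

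**Figure D1:**
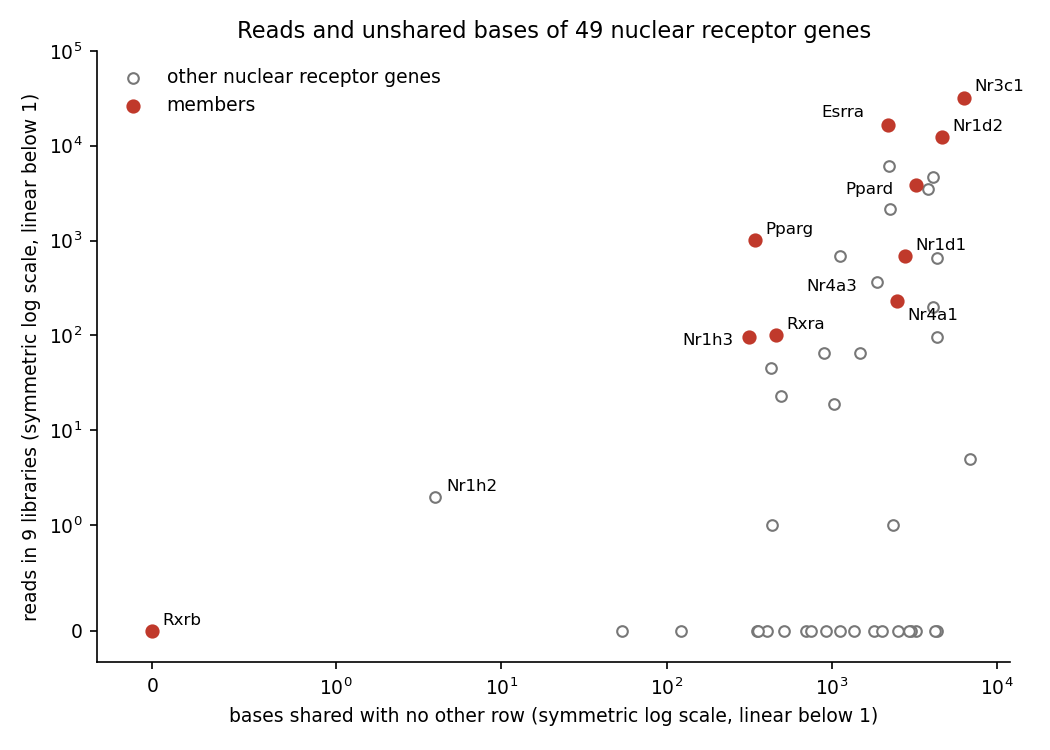
Reads summed over 9 libraries (vertical axis) against bases shared with no other row of the table (horizontal axis) for 49 nuclear receptor genes, 10 members filled and 39 others open, both axes on a symmetric log scale that is linear below 1. Rxrb, at 0 bases and 0 reads, lies under the same point as 2 other genes with no unshared base, and Nr1h2, for LXRβ, has 4 bases and 2 reads.

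Sequences upstream of 3 members are printed because the first pair, Nr1d1 and Nr1d2, fell together under LPS, and because the third, Nr4a1, was set against its relative Nr4a3. They come from RefSeq on GRCm38.p6, the assembly of mm10, where windows were found by symbol for 9 of the 10 members (14 windows in all). The member without an entry was Nr3c1. Each run gives the 250 bases before the start of transcription, 5′ to 3′ on the strand of the gene. It lies at chr11:98775378-98775627 on the minus strand for Nr1d1, at chr14:18239107-18239356 on the minus strand for Nr1d2 and at chr15:101266596-101266845 on the plus strand for Nr4a1. Capitals mark CACGTT, an E-prime box, in Nr1d1, the nuclear receptor half-site AGGTCA in Nr1d2 and the CRE-like letters TGACGCA in Nr4a1, read on both strands.
Nr1d1: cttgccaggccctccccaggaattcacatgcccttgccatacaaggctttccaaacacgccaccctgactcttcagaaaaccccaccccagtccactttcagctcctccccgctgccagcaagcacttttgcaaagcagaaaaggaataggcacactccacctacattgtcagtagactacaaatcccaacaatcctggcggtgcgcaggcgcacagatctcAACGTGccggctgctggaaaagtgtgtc
Nr1d2: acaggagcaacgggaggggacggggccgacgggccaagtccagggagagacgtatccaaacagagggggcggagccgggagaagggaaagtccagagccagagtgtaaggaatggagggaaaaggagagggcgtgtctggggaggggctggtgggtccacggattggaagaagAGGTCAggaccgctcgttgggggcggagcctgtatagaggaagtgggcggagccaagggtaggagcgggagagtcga
Nr4a1: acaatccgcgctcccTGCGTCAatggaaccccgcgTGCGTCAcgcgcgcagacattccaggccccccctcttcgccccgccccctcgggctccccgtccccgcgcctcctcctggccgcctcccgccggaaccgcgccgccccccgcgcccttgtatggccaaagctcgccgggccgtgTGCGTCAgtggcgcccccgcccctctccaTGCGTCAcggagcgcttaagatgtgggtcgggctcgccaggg
The letters were chosen after the windows had been read, and a match is a description only. CACGTT occurred in 3.848% of 32851 windows of this length, AGGTCA in 14.02% and TGACGCA in 1.747%. The Nr4a1 window held 4 matches to TGACGCA and was the 1 window of 32851 with 3 or more (0.003044%). AGGTCA also matched 2 times in a window of Rxra and 1 time in each of 2 windows of Pparg. The E-box CACGTG (6.021% of windows), the extended ERR half-site TCAAGGTCA (0.3866%), which contains AGGTCA, the cyclic AMP response element TGACGTCA (1.546%) and the D-box TTATGTAA (0.8188%) were searched in the same way and had no match in the members' windows, nor did a direct repeat of AGGTCA with 4 bases between (0.01522%). A single exact form of the kappa B site (0.14%) also had no match, and its other forms were not searched.

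Levels were compared between genes per kb of unshared bases, and only among the 6 members with 1 row. In Veh, Esrra came first at 37.8 ± 1.15 CPM per kb (SD, n = 3), followed by Nr3c1 at 33.5 ± 1.16 and Nr1d2 at 24.9 ± 0.401. Ppard followed at 11.3 ± 0.428 CPM per kb, then Nr1d1 at 2.72 ± 0.148 and Nr4a1 at 0.713 ± 0.106. The order was the same in LPS and in T0+LPS, and in each group the 3 libraries of every gene lay above those of the next gene. The first pair stood at 68.8 ± 2.62 CPM per kb for Esrra and 42.4 ± 2.67 for Nr3c1 in LPS, and at 68.5 ± 0.713 and 40.5 ± 2.93 in T0+LPS. The lowest pair came closest in LPS, where Nr1d1 was at 1.31 ± 0.255 CPM per kb and Nr4a1 at 0.732 ± 0.0762.

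**Figure D2:**
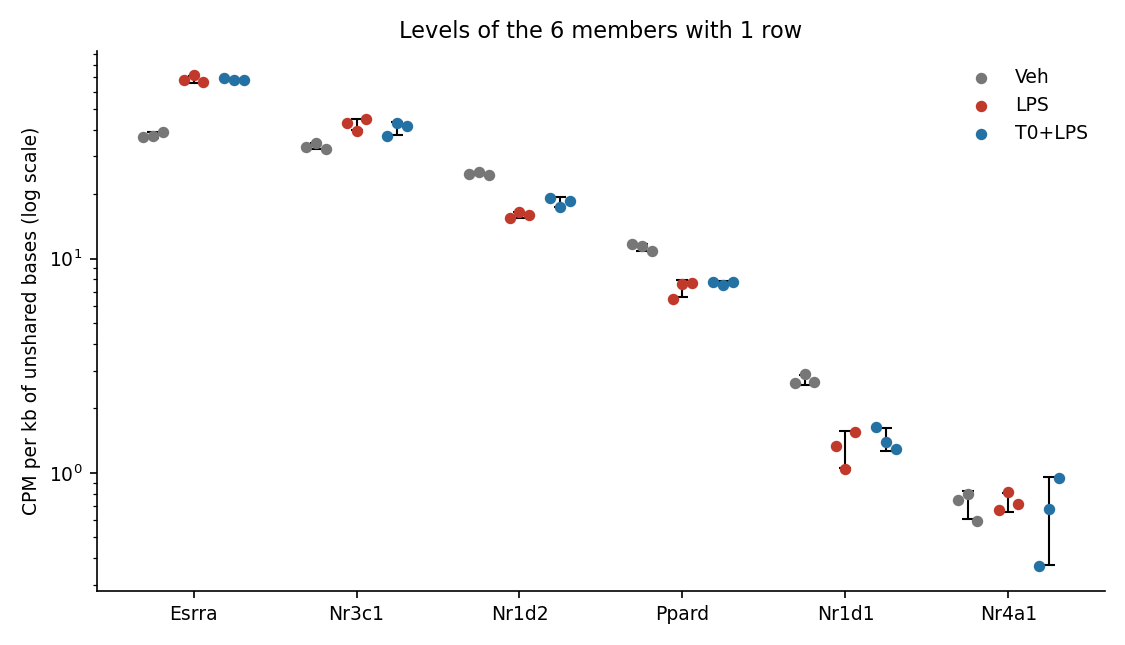
Level of each member with 1 row in CPM per kb of unshared bases (log scale). Points are libraries and bars the mean ± SD of 3 libraries in Veh, LPS and T0+LPS, and from Esrra to Nr4a1 no gene overlaps its neighbor within a group.

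Most of the receptors that could be tested differed between LPS and Veh. Relative to Veh, Esrra and Nr3c1 rose and Pparg, Ppard, Nr1d1 and Nr1d2 fell, with Pparg at 0.499 and Nr1d1 at 0.492 of the Veh level. Rxra and Nr4a1 did not pass the test, and Nr1h3 and Rxrb had too few reads to be tested. Thus 2 of 8 tested members were called higher (adjusted p under 0.05, edgeR, adjusted over 9559 symbols), when 32.9% of all symbols tested were, and 4 of 8 were called lower, when 31.2% were. Over 8 genes these shares were not read as particular to the receptors, and the counts of every gene list under LPS given below stand beside the same 32.9% and 31.2%. The members' median log2 fold change was -0.41, against -0.00 over all symbols tested. Scaling to library totals in place of TMM factors, which were between 1.12 and 1.14 in Veh and between 0.937 and 0.955 in LPS, shifted the median of all symbols to -0.28. It ended the call of Nr3c1 (log2 fold change 0.09, adjusted p = 0.150) and turned the sign of the uncalled Nr4a1, and the other 5 calls were made in the same direction.

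T0 given before LPS called no member. Of 8 members tested with edgeR in T0+LPS against LPS, 0 were called, and 297 of all 9348 symbols were (3.18%). At an unadjusted p under 0.05 there was 1 member, Nr1d2, and there were 1299 symbols in all. DESeq2 also called 0 members, while edgeR called Nr1d2 alone when genes of low count were not filtered out or when all 9 libraries were fitted together. The groups did not overlap in CPM for 2 of the 8, Nr1h3 and Nr1d2, against 19.1% of all symbols tested. The members' log2 fold changes ran from -0.14 to 0.60, with a median of 0.07 against 0.00 over all symbols tested. Against Veh, where both agents differ, T0+LPS had 3 of 9 tested members higher (32.4% of 9636 symbols) and 4 lower (32.9%). The higher members were Nr1h3 (log2 fold change 1.41), Esrra (0.86) and Nr3c1 (0.27, and 0.01 with an adjusted p of 0.855 by library totals). The lower ones were Pparg (-0.97), Nr1d1 (-0.92), Ppard (-0.56) and Nr1d2 (-0.43). This comparison shares the Veh libraries with LPS against Veh and the T0+LPS libraries with T0+LPS against LPS, so it adds no independent measurement.

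**Figure D3:**
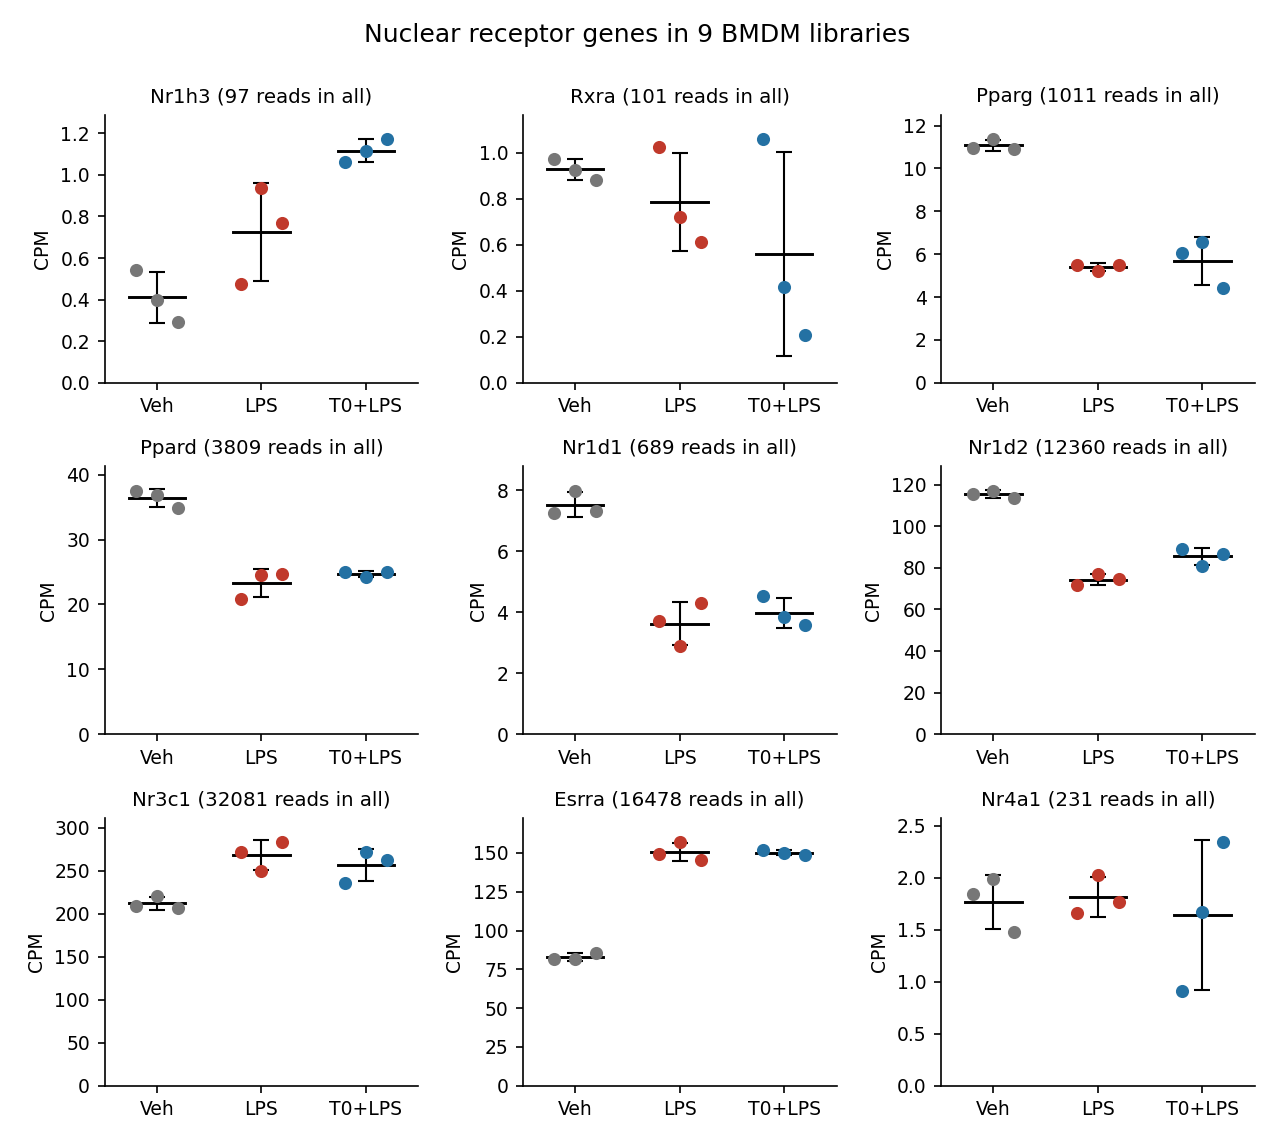
CPM of 9 members in each library (points, offset sideways by replicate number), with the mean (line) and SD (bar) of 3 libraries in Veh, LPS and T0+LPS, each panel starting at 0 on its own scale. Esrra and Nr3c1 sit higher in both LPS groups and Pparg, Ppard, Nr1d1 and Nr1d2 lower, and scaling to library totals ended the call of Nr3c1.

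Nr1h3 encodes LXRα, 1 of the LXRs that T0 activates. It had 10, 6 and 5 reads in the Veh libraries, 6, 13 and 10 in LPS and 14, 16 and 17 in T0+LPS. These correspond to 0.542, 0.396 and 0.295 CPM in Veh, to 0.473, 0.939 and 0.766 in LPS and to 1.06, 1.11 and 1.17 in T0+LPS. All 3 T0+LPS libraries lay above every LPS library, and the Veh and LPS libraries overlapped. T0+LPS against LPS gave a log2 fold change of 0.60 (95% CI -0.12 to 1.32, adjusted p = 0.480). The ratio of summed reads, each sum divided by its TMM-scaled library sizes, was 1.52 (exact 95% interval 0.940 to 2.51 for counting error alone). Against Veh, T0+LPS was called higher by 1.41 on the log2 scale (standard error 0.34, adjusted p = 0.00193), higher in 3 of 3 libraries. Nr1h3 did not pass the filter on low counts in LPS against Veh, except in fits that left out LPS replicate 1 (log2 fold change 1.06, adjusted p = 0.0473) or Veh replicate 1, 2 or 3 (adjusted p = 0.0675, 0.149 and 0.242). Without a filter its adjusted p was 0.162. The partner gene Rxra had between 14 and 18 reads per library in Veh, between 8 and 13 in LPS and 14, 6 and 3 in T0+LPS. Its log2 fold change was -0.22 in LPS against Veh (95% CI -0.88 to 0.45, adjusted p = 0.572) and -0.76 in T0+LPS against Veh (95% CI -1.67 to 0.16, adjusted p = 0.135). T0+LPS replicate 1 stood apart for Rxra: without it the latter value was -1.54 (adjusted p = 0.00800), leaving out T0+LPS replicate 3 made it -0.34 (adjusted p = 0.493), and with library totals it was -1.01 (adjusted p = 0.0428). Rxra did not pass the filter in T0+LPS against LPS, where its ratio of summed reads, scaled by library size in the same way, was 0.698 (exact 95% interval 0.389 to 1.24 for counting error alone). Without a filter that comparison gave -0.51 (adjusted p = 0.775). It gave -0.57 without LPS replicate 2, -0.66 without LPS replicate 3, -0.34 without T0+LPS replicate 2 and -0.11 without T0+LPS replicate 3, none of them called, so an effect of T0 on Rxra was not detectable at these read counts.

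Most genes listed as LXR targets had enough reads to be tested. Of 18 listed LXR targets, Nr1h3 among them, 16 were tested in T0+LPS against LPS. Of these, 13 rose and none fell, when 3.18% of all symbols tested were called in either direction. The list was chosen with earlier results of these data known, so this count is a description and not an independent test. The largest increases were in Scd2 and Scd1, stearoyl-CoA desaturases (log2 fold change 3.92 and 3.18), and in the cholesterol transporters Abcg1 (2.09) and Abca1 (1.47). The 3 tested targets that were not called were Nr1h3, Apoe and Smpdl3a. The list's median log2 fold change was 1.03. LPS without T0 split the same list, with 4 of 15 tested genes higher and 8 lower and a median of -0.12. Abca1 rose by 1.34 on the log2 scale, whereas Arl4c (-1.85), Abcg1 (-1.25) and the phagocytic receptor gene Mertk (-0.81), a gene of the macrophage list too, fell. With library totals 1 gene was higher and 11 were lower, and the signs of Lpl and Fasn turned.

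Pparg encodes PPARγ, known for lipid uptake and alternative activation in macrophages. Its level was 10.9, 11.4 and 10.9 CPM in the Veh libraries, 5.52, 5.20 and 5.52 in LPS and 6.06, 6.55 and 4.41 in T0+LPS. Every LPS and T0+LPS library lay below every Veh library, and the LPS and T0+LPS libraries overlapped. On its unshared bases, LPS was at 0.499 of the Veh level (standard error 0.11 on the log2 scale, adjusted p = 8.5e-07). T0+LPS against LPS gave a log2 fold change of 0.06 (95% CI -0.29 to 0.41, adjusted p = 0.925). Ppard, for PPARδ, a broadly expressed fatty acid receptor, lies on chromosome 17 from 28232754 to 28301469. It was at 37.6, 36.9 and 34.9 CPM in Veh, at 20.9, 24.5 and 24.7 in LPS and at 25.0, 24.2 and 25.0 in T0+LPS. The Veh libraries were again all above the rest, with no separation between the LPS groups. The log2 fold change was -0.61 in LPS against Veh (standard error 0.08, adjusted p = 2.76e-06) and 0.08 in T0+LPS against LPS (95% CI -0.10 to 0.25, adjusted p = 0.776).

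The 16 genes listed as PPAR targets went both ways under LPS: of 12 tested, 3 rose and 5 fell (32.9% and 31.2% of all symbols), with a median log2 fold change of -0.10. Angptl4, a lipoprotein lipase inhibitor, fell from 11.2 ± 0.840 CPM (SD, n = 3) to 0.586 ± 0.183, a log2 fold change of -4.22 (adjusted p = 1.62e-11). Klf4 (-1.76) and the lipid droplet gene Plin2 (-0.68) fell as well. Olr1, an oxidized LDL receptor gene, rose by 8.07 on the log2 scale from 14 reads in the Veh libraries to 2975 in LPS. With library totals 3 were higher and 9 lower. With T0 before LPS, 2 of 11 tested genes fell and none rose relative to LPS (3.18% of all symbols called), with a median of -0.13. They were Olr1 (-0.50, adjusted p = 0.00157) and Cpt1a, for the carnitine palmitoyltransferase of fatty acid oxidation (-0.25, adjusted p = 0.00885, and 0.0522 without T0+LPS replicate 3).

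Nr1d1 and Nr1d2 encode REV-ERBα and REV-ERBβ, the heme-binding repressors of the clock. Nr1d1, on chromosome 11 from 98767932 to 98775377 below the first window printed above, was at 7.26, 8.00 and 7.31 CPM in Veh, at 3.71, 2.89 and 4.29 in LPS and at 4.54, 3.83 and 3.58 in T0+LPS. The larger Nr1d2, on chromosome 14 from 18204056 to 18239106, was at 115, 117 and 113 CPM in Veh, at 71.7, 76.8 and 74.5 in LPS and at 89.1, 80.8 and 86.5 in T0+LPS. For both genes all Veh libraries exceeded all LPS libraries. T0+LPS lay between the other groups without overlap for Nr1d2, and overlapped LPS for Nr1d1. Both were lower in LPS than in Veh, with a log2 fold change for Nr1d1 of -1.02 (standard error 0.15, adjusted p = 2.27e-05) and for Nr1d2 of -0.61 (standard error 0.05, adjusted p = 1.36e-08). As the hour of the Veh harvest was not stated, the part of time in culture in this difference was not tested. T0+LPS against LPS gave 0.20 for Nr1d2 (95% CI 0.08 to 0.32, adjusted p = 0.0836), higher in 3 of 3 libraries, and this did not pass the adjustment. Its adjusted p was 0.0377 without a filter, 0.0369 with all 9 libraries fitted and between 0.0684 and 0.383 with 1 library left out. Nr1d1 gave 0.13 (95% CI -0.28 to 0.54, adjusted p = 0.839). Thra lies next to Nr1d1 on the other strand, and a known alternative transcript of Thra runs into Nr1d1. Reads of such a transcript could not be told apart from those of Nr1d1, since counting ignored strand.

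Other clock genes differed between LPS and Veh in both directions, and the part of time in culture was again not tested. Of 19 listed, 13 were tested, and 4 rose and 7 fell, with a median log2 fold change of -0.44, and the counts in each direction were the same with library totals. Dbp (-1.98) and Tef (-1.37), transcription factors that bind D-boxes, fell. Nfil3, which binds the same element as a repressor, rose by 1.32. Of 11 clock genes tested in T0+LPS against LPS, edgeR and DESeq2 each called 0, with 2 at an unadjusted p under 0.05 and a median of -0.07.

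Nr3c1, on chromosome 18, encodes the glucocorticoid receptor. It had the highest read counts of the members, with 209, 220.0 and 206 CPM in Veh, 271, 249.8 and 283 in LPS and 235, 271 and 262 in T0+LPS. The Veh libraries were below all 6 others, and the LPS and T0+LPS libraries overlapped. The log2 fold change was 0.37 in LPS against Veh (standard error 0.05, adjusted p = 9.75e-06), a call that was lost with library totals, and -0.07 in T0+LPS against LPS (95% CI -0.20 to 0.06, adjusted p = 0.687). Of 16 genes listed as glucocorticoid receptor targets or chaperones, 14 were tested, 11 rose and 3 fell under LPS, with a median of 0.71, and the counts in each direction were the same with library totals. The largest changes were in the metallothionein gene Mt2 (3.94), the transcription factor gene Cebpd (3.10), Tsc22d3, for the glucocorticoid-induced leucine zipper (-1.84), and the cochaperone gene Stip1 (1.44). T0+LPS against LPS had a median of -0.03 and 1 call among the 14 (3.18% of all symbols), Zfp36 (-0.25, adjusted p = 0.0151), whose product destabilizes inflammatory mRNAs. This call was lost without LPS replicate 1 (adjusted p = 0.0695), T0+LPS replicate 1 (0.0800) or T0+LPS replicate 2 (0.105). Per1, a clock gene, and Dusp1, an immediate-early gene, are in the list too.

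Esrra encodes ERRα, an orphan receptor that works with PGC-1 coactivators on mitochondrial genes. It lies on chromosome 19 from 6910977 to 6921808 and was at 81.3, 81.4 and 85.7 CPM in Veh, at 149.6, 157 and 146 in LPS and at 152, 149.8 and 149 in T0+LPS. All 6 LPS-treated libraries lay above the Veh libraries, and the LPS and T0+LPS libraries overlapped. The increase under LPS was 0.89 on the log2 scale (standard error 0.05, adjusted p = 7.34e-11), the largest rise among the members tested, and it was 0.61 with library totals. T0+LPS against LPS gave -0.01 (95% CI -0.11 to 0.09, adjusted p = 0.954), the narrowest interval of the set. Of 16 listed ERR partners and mitochondrial genes, 12 were tested under LPS, and 9 rose and 2 fell, with a median of 0.26. The coactivator gene Pprc1 (0.88), cytochrome c, Cycs (0.88), Gabpa (0.69) and the ATP synthase gene Atp5b (0.41) rose most, and Ppargc1b and Acadm were the genes that fell. With library totals 4 were higher and 5 lower, and Idh3a, Sdha and Uqcrfs1 turned sign, so the direction of the smaller changes depended on the scaling. For T0+LPS against LPS, edgeR and DESeq2 each called 0 of the 12, with 0 at an unadjusted p under 0.05 and a median of -0.04.

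**Figure D4:**
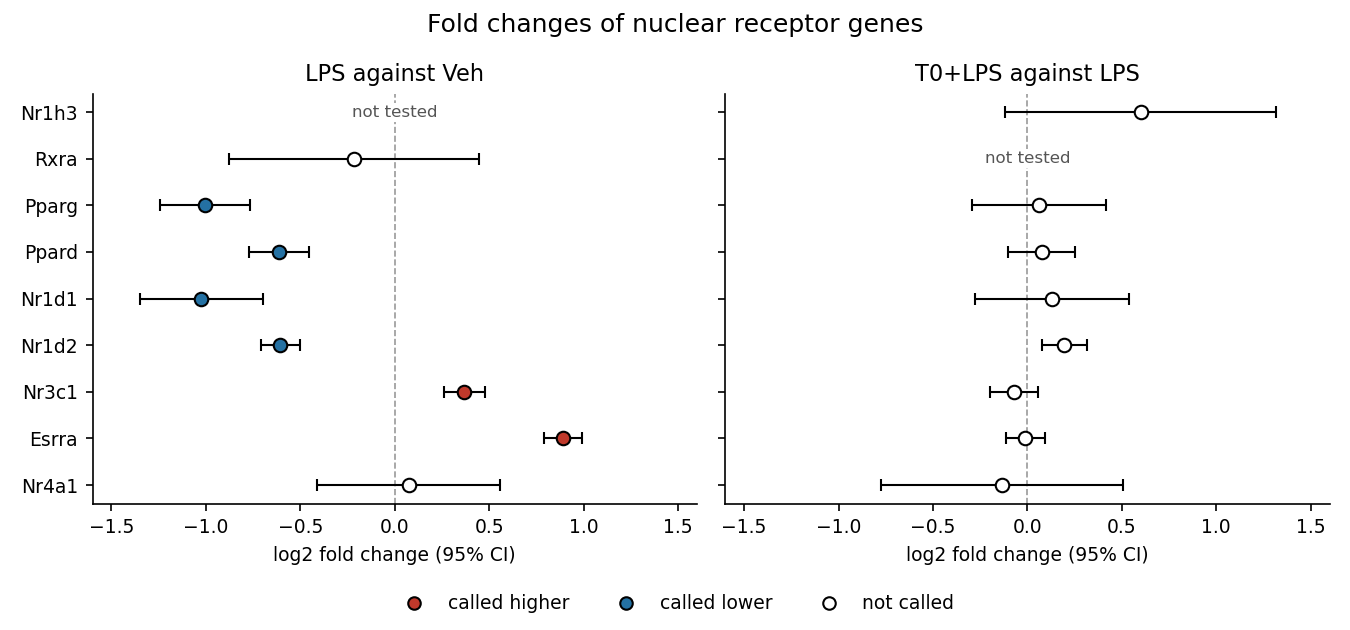
Log2 fold changes of 9 members with their 95% CI in LPS against Veh (left) and T0+LPS against LPS (right), filled where called at an adjusted p under 0.05. Nr1h3 was not tested in the left comparison and Rxra was not tested in the right, so these have no value there. Intervals in the left panel lie clear of 0 for 6 members, of which Nr3c1 lost its call with library totals, and in the right panel Nr1d2 alone has an interval above 0, with an adjusted p of 0.0836.

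Nr4a1 encodes NUR77, an orphan receptor known as an immediate-early gene. Its window printed above holds the 4 CRE-like runs, and the transcript starts next to it on chromosome 15 at 101266846. It was low at the time of harvest, with 34, 30 and 25 reads in Veh, 21, 28 and 23 in LPS and 12, 24 and 34 in T0+LPS. The libraries of the 3 groups overlapped. The log2 fold change was 0.07 in LPS against Veh (95% CI -0.41 to 0.56, adjusted p = 0.795) and -0.14 in T0+LPS against LPS (95% CI -0.78 to 0.51, adjusted p = 0.907). Its sign turned with library totals and with single libraries left out, and no change was detectable at this depth. Nr4a3, for the related orphan NOR1, was different: it had 2, 1 and 0 reads in Veh, 60, 56 and 77 in LPS and 46, 48 and 73 in T0+LPS. With reads divided by TMM-scaled library sizes, the ratio of LPS to Veh was 82.2. Its exact 95% interval was 27.7 to 402 for counting error alone, and the adjusted p by edgeR was 1.33e-09. T0+LPS against LPS gave -0.30 for Nr4a3 (95% CI -0.73 to 0.12, adjusted p = 0.572). Nr4a2, the third gene of the group, had 23 reads over all 9 libraries on 496 unshared bases. Whether LPS changed Nr4a1 and Nr4a3 to a different extent was not tested.

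Of 17 listed immediate-early genes, 12 were tested under LPS, and 7 rose and 4 fell, when 32.9% and 31.2% of all symbols tested did, with a median of 0.77. Dusp2, a phosphatase of MAP kinases, rose by 4.25 on the log2 scale and Ier3 by 2.98, whereas Fos (-4.38) and Atf3 (-2.17) fell. The part of time in culture in these differences from Veh was not tested. With library totals 6 were higher and 5 lower, with no called gene turned. The median of T0+LPS against LPS was -0.07, with 1 gene higher, Atf3 (0.66, adjusted p = 5.34e-06), and 4 lower, beside 3.18% of all symbols called. Those were Dusp2 (-0.45), Ier2 (-0.41), Junb (-0.31) and Fosl2 (-0.29).

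Among the 39 other nuclear receptor genes, 21 had no read, and 19 of these had unshared bases to count on. For those 19, the limit that 3 reads over a group would give was 0.0594 CPM in Veh, 0.0758 in LPS and 0.0713 in T0+LPS. The limit takes no account of unshared bases, which were as few as 54 among them, so it says little for such genes. A further 10 had reads but stayed under 1 CPM in every group, Nr1h2 with its 2 reads among them. The 8 that reached 1 CPM were Thra, Rarg, Nr2c1, Nr2c2, Nr2f6, Esr1, Nr3c2 and Nr4a3. Of 9 tested under LPS, 3 were higher and 3 lower, beside 32.9% and 31.2% of all symbols tested. Besides Nr4a3, the retinoic acid receptor gene Rarg rose from 2.68 ± 0.116 CPM (SD, n = 3) to 6.86 ± 0.591 (log2 fold change 1.39, adjusted p = 6.82e-07). The orphan receptor genes Nr2c2 (-1.02, adjusted p = 2.26e-08), Nr2f6 (-0.55, adjusted p = 3.64e-07) and Nr2c1 (-0.35, adjusted p = 0.00130) fell. Nr3c2, for the mineralocorticoid receptor, was called higher (0.63, adjusted p = 0.0405) with 67 reads in Veh and 80 in LPS. That call was lost with library totals (adjusted p = 0.225), with DESeq2 (0.123) and without Veh replicate 1 (0.103), Veh replicate 3 (0.162), LPS replicate 1 (0.0538), LPS replicate 2 (0.120) or LPS replicate 3 (0.0914). Thra gave -0.07 (95% CI -0.28 to 0.14, adjusted p = 0.540), and -0.35 with library totals (adjusted p = 0.00390). Esr1, for an estrogen receptor, gave -0.32 (95% CI -0.69 to 0.05, adjusted p = 0.123), which was -0.50 without LPS replicate 3 (adjusted p = 0.0271) and -0.60 with library totals (adjusted p = 0.00650). Of 8 tested in T0+LPS against LPS, edgeR and DESeq2 each called 0, with 2 at an unadjusted p under 0.05, Nr2c2 (0.22) and Nr3c2 (-0.74).

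Retinoid metabolism, which supplies ligands of RAR and RXR, was covered by 4 tested genes of 13 listed. Under LPS the dehydrogenase genes Dhrs3 (-0.68), Dhrs9 (-0.48) and Rdh10 (-0.28) fell and Rdh11 (0.26) rose. The sign of Rdh11 turned with library totals (-0.03, adjusted p = 0.679), and the call of Rdh10 was lost without Veh replicate 1 (adjusted p = 0.0514) or LPS replicate 1 (0.0796). The list's median was -0.38 under LPS and 0.05 in T0+LPS against LPS, where edgeR and DESeq2 each called 0 of the 4 and 1 had an unadjusted p under 0.05.

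**Figure D5:**
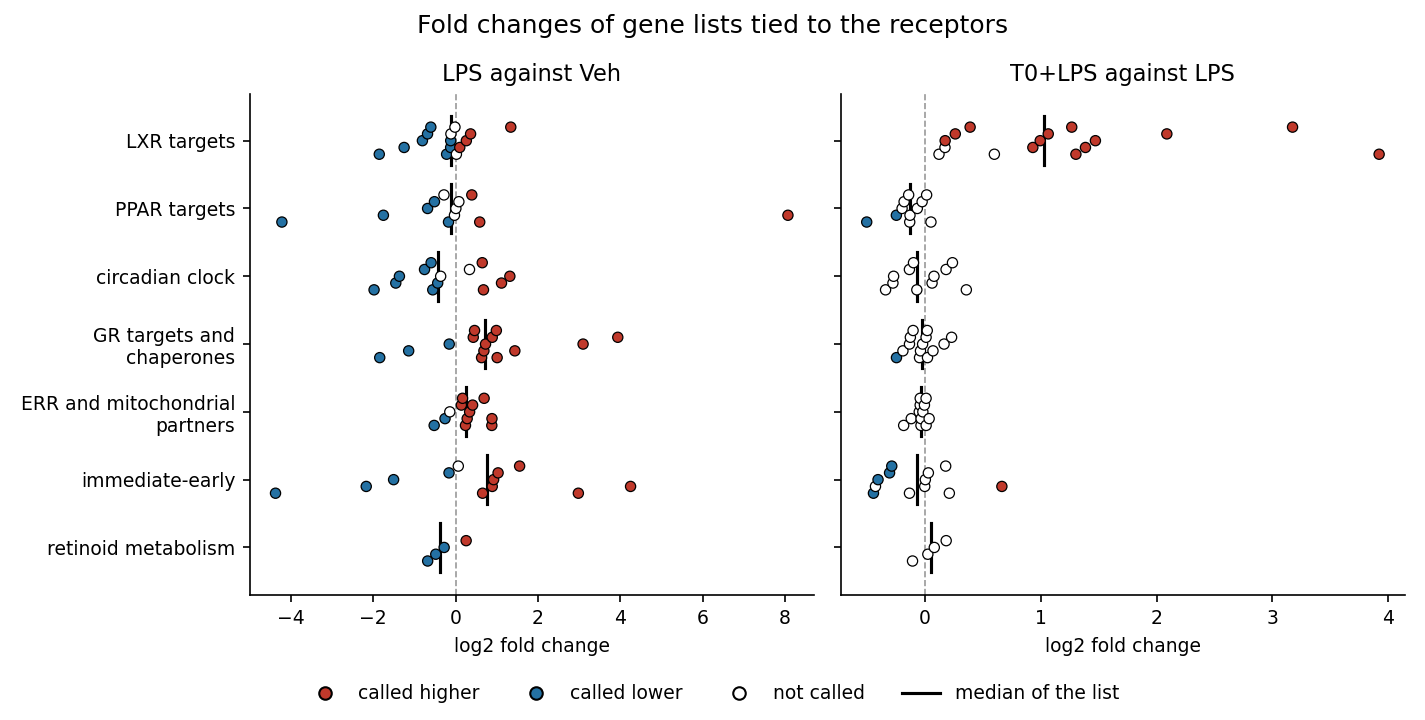
Log2 fold changes of the tested genes of 7 lists in LPS against Veh (left) and T0+LPS against LPS (right), with points staggered vertically for legibility, filled where called, and the median of each list as a line. In the right panel 13 of 16 LXR targets are called higher, and in the left panel library totals in place of TMM factors turn the sign of called genes in the LXR, ERR and retinoid lists.

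Genes whose profile over the 9 libraries was most like that of a member were found among 7298 others by the root mean square difference of centered log2 CPM. For Esrra they were Vps37c, Eif1 and Il2rg, at differences between 0.0316 and 0.0367. The closest to Nr3c1 were Usp9x and Wasf2, at 0.0317 and 0.0339. Ppard was followed by Zbtb42, Coa7 and Rasal3, at 0.0424 to 0.0582, and Nr1d2 by Impact, Bag4 and Tpcn2, at 0.0461 to 0.0526. Impact, for example, was at 196 CPM in Veh, 130 in LPS and 143 in T0+LPS, the same order of groups as Nr1d2. The members with fewer reads had looser neighbors, Wdr60, Def6 and Spsb2 for Pparg at 0.0777 to 0.0996 and Znf512b, Zfp760 and Zcchc11 for Nr1d1 at 0.103 to 0.127.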

How the data were processed

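RNA-seq of BMDMs was analysed in 3 groups of 3 libraries. The authors deposited whole read counts that were not normalized, made with cutadapt (trimming), HISAT2 (alignment, mm10) and featureCounts of Subread on RefSeq transcripts. The authors' own fold values and p-values for pairs of groups were not used. Counts were summed per symbol and tested with edgeR 4.0.16 in R 4.3.3 (TMM, filterByExpr, quasi-likelihood test, Benjamini-Hochberg over all symbols tested, called under 0.05), fitted to the 6 libraries compared. Standard errors and 95% CI were derived from the fold change and its F statistic. These include the spread between libraries, whereas exact intervals of read ratios, and floors, cover counting error only. Library pairs within groups differed by more than sampling noise (chi-square per degree of freedom 2.75 to 7.18). Alternatives were DESeq2 1.42.0 and its size factors, library totals, no filter, all 9 libraries, single rows, a replicate block and each library left out. Named genes were all members, other nuclear receptors with at least 1 CPM in a group and, per list and comparison, the 4 called genes with the largest change and at least 5 CPM, plus the 3 genes most like each called member with at least 5 CPM (log2 CPM with a prior count of 1). Not every gene that met this rule is named. Csf1r, Apoe, Smpdl3a, Lpl, Fasn, Fosl2, Ppargc1b, Acadm, Idh3a, Sdha, Uqcrfs1, Nr4a2 and Nr1h2 were named outside this rule, after their values were seen. The members and lists were chosen with earlier results of these data known. Figures were drawn with matplotlib 3.10.9.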

Additional observations from a re-analysis of the deposited data

How the results depend on the processing

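With library totals in place of TMM factors, LPS against Veh had 1694 genes higher and 5411 lower (76.2% of calls lower, 48.6% with TMM), and T0+LPS against Veh had 1659 and 5523 (76.9%, 50.4% with TMM). The cause was not tested. Without a filter on low counts, 14362 symbols in place of 9348 were tested in T0+LPS against LPS, with 225 higher and 285 lower. With 1 library left out that comparison gave between 59 and 167 higher and between 82 and 191 lower, fewest without LPS replicate 1 in both directions. It was also well below the reported counts of 126 and 171 without T0+LPS replicate 2 (78 higher, 94 lower) and, for lower genes, without T0+LPS replicate 1 (103). Members called there numbered 1 without a filter and 1 with all 9 libraries fitted, Nr1d2 each time, and between 0 and 0 with 1 library left out. Members called in LPS against Veh stayed at 6 in 5 of 6 fits with 1 library left out and were 7 without LPS replicate 1.

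Signs turned mostly for values that were not called. In LPS against Veh, Nr4a1 gave -0.21 and the called Rdh11 -0.0276 with library totals, and with 1 library left out Nr4a1 ran from -0.0482 to 0.16 and Thra from -0.19 to 0.00513. In T0+LPS against LPS, with 1 library left out, Pparg ran from -0.0534 to 0.22, Nr4a1 from -0.48 to 0.14, Nr1d1 from -0.0145 to 0.27, Esrra from -0.0327 to 0.0191 and Nr2c1 from -0.0861 to 0.0790. In T0+LPS against Veh, Nr4a1 ran from -0.42 to 0.20. The cause was not tested.

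Whether replicate numbers pair the libraries was not stated. Same-numbered libraries deviated from their group means with correlations between -0.104 and 0.122, and 3 libraries per group are too few to decide it. With a replicate block, T0+LPS against LPS had 155 genes higher and 230 lower, LPS against Veh 3053 and 2926 and T0+LPS against Veh 3078 and 3124, and members called stayed at 0, 6 and 7. Depth limits Nr1h3, Rxra and Nr4a1, with 97, 101 and 231 reads, and Rxrb was not measured.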
